A study of Mus musculus with 23 samples.

Results

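The clock output genes described here are the 3 period genes (Per1, Per2, Per3), the 3 PAR bZIP transcription factor genes (Dbp, Tef, Hlf), the 2 REV-ERB receptor genes (Nr1d1, Nr1d2), and Ciart and Usp2. They were taken by symbol from a deposited table of normalized read counts of mouse proximal small intestine, in which all 10 were found among 16259 genes, and all 10 had the mean of at least 10 normalized reads that 11939 genes reached and that testing required. The table covers 23 libraries from mice labelled male, 11 of them Ddit4-/- and 12 wild type. Ddit4 encodes a stress-induced inhibitor of the growth kinase complex mTORC1, and the labels give neither the deletion design nor the age of the mice. The treated animals received doxorubicin, a DNA-damaging cancer drug, once at 20 mg/kg into the peritoneum.

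Of the doxorubicin libraries, 8 came from mice that had been fasted for 24 h and refed from the time of injection (called prefasted; 2, 6, 12 and 24 h, both genotypes), and 7 from mice fed ad libitum (2 h in wild type alone, and 6, 12 and 24 h in both genotypes). The 8 untreated libraries were refed for 2 h or 6 h after the same fast (4 libraries), fasted and not refed (2) or fed ad libitum (2), the last 2 states at 0 h. Each of these 12 states had 1 library per genotype, except that 2 h after doxorubicin in ad libitum mice had the wild-type one alone, so both genotypes of a state stood in for replicates. The labels do not say that replicates were raised apart, and a p-value here covers no more than the scatter among the libraries at hand. No Ddit4-/- library at 2 h after doxorubicin in ad libitum mice is among the libraries listed. The hours of harvest are not given. Hours after the drug or of refeeding and hour of the day therefore cannot be told apart, and no untreated ad libitum library was taken later than 0 h.

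In mammalian cells the transcription factors CLOCK and BMAL1 (the product of Arntl) bind E-box sequences and switch on the period, PAR bZIP, REV-ERB and Ciart genes. PER proteins then feed back to block that complex, REV-ERB receptors repress Arntl, and DBP, TEF and HLF pass the rhythm on to output genes through D-box sequences. In the gut these rhythms follow both the light cycle and the time of meals, and Per1 and Per2 also respond directly to glucocorticoids and other acute signals.

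The promoters of 4 members are shown, those of Per3, Tef and Ciart because they hold D-box or E-box copies and that of Nr1d1 because its values followed a different course. They are the 250 bases before the annotated start in RefSeq on GRCm38.p6, 5′ to 3′, with E-boxes (CACGTG) and D-boxes (TTANGTAA) in capitals.
Per3, chr4:151044666-151044915, minus strand: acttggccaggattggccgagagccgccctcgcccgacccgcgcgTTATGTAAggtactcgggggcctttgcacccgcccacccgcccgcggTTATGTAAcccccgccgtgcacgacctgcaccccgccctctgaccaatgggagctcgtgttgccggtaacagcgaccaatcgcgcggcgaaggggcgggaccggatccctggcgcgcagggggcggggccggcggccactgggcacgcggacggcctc
Tef, second annotated start, chr15:81811164-81811413, plus strand: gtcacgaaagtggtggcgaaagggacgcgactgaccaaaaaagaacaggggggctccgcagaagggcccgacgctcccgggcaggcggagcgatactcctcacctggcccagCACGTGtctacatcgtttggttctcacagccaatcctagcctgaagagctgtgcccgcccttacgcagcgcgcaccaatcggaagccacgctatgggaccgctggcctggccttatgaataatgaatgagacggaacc
Ciart, chr3:95882229-95882478, minus strand: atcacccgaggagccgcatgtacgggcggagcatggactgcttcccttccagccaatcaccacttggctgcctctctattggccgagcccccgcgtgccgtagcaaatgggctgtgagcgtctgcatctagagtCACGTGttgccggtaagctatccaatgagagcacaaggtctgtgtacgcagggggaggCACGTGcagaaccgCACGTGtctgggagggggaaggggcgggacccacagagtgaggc
Nr1d1, chr11:98775378-98775627, minus strand: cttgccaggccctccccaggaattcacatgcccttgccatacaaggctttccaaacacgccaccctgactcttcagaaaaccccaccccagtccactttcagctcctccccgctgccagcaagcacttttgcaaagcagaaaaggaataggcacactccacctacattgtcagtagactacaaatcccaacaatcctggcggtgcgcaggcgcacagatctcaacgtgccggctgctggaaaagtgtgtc
Both strands were searched in the 11 promoters that the table holds for 9 of the 10 members. The E-box was found in 4 of them, belonging to Per1, to both starts of Tef and to Ciart, which holds 3 copies, and in 6.02% of all 32851 promoters of this length. The D-box was found in Per3 alone, as 2 copies, and in 2.06% of all promoters. The related CACGTT sequence was found in Nr1d1, where it reads aacgtg on the strand shown, and in 3.85% of all promoters. The cAMP response element TGACGTCA was found in Hlf, and in 1.55% of all promoters. The REV-ERB motif TAGGTCA was found in none of the 11 member promoters and in 2.23% of all. A match describes these letters and is not evidence of binding.

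In mm10 (GENCODE), Per1 spans bases 69095217 to 69109960 of chromosome 11, Per2 91415982 to 91459324 of chromosome 1 and Per3 151003652 to 151044665 of chromosome 4. Dbp lies at 45705088 to 45710203 of chromosome 7, Tef at 81802421 to 81826863 of chromosome 15 and Hlf at 90336536 to 90390895 of chromosome 11. Nr1d1 spans 98767932 to 98775333 of chromosome 11, Nr1d2 18204054 to 18239127 of chromosome 14, Ciart 95878503 to 95882251 of chromosome 3 and Usp2 44067021 to 44095627 of chromosome 9. The libraries did not keep strand, so reads from exons that overlap on opposite strands cannot be told apart. The overlaps given here are of whole gene spans, and whether exons are shared was not checked. Nr1d1 shares 1075 bases with Thra and Dbp shares 737 bases with Sphk2, each on the opposite strand, while all 3749 bases of Ciart and all 28607 of Usp2 lie inside gene models of the opposite strand (C920021L13Rik and Gm49380). Per3 lies within Camta1 on the same strand.

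The libraries held from 11418115 to 23428519 recovered reads (median 15524351), and 1 read stood for 0.705 to 1.67 normalized reads. Ddit4 had at most 11.3 normalized reads in Ddit4-/- libraries and at least 66.9 in wild-type libraries. The 4 wild-type prefasted doxorubicin libraries have titles that say untreated, and their drug label was used. Reads of Y-linked genes were nearly absent (0 to 5) from 3 libraries, namely the Ddit4-/- untreated ones fed ad libitum, fasted or refed for 2 h, which goes against their label of male; the other 20 had 1088 to 2030. Pancreatic acinar transcripts stood far above the other libraries in 2, the Ddit4-/- fasted (50937 summed normalized reads of 6 genes) and the wild-type refed for 6 h (130719). Enterocyte markers summed to 903262 or more in every library, so the label of small intestine held. In whole tissue, fewer cells of a type and less RNA per cell cannot be told apart.

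Across the 12 states, 9 of the 10 clock output genes differed (limma F test on log2(normalized reads + 1), adjusted p from 8.6e-05 for Per2 to 0.039 for Nr1d1), while 15.3% of all tested genes did so; Ciart missed (adjusted p = 0.22). Without the untreated Ddit4-/- library fed ad libitum, 5 members passed. The untreated ad libitum libraries were the lowest state for 7 of them: Per2, Per3, Dbp, Tef, Hlf, Nr1d2 and Usp2. For Per1, Per2, Per3, Dbp, Tef and Nr1d2, 6 of the 10, all 15 doxorubicin libraries stood above both untreated ad libitum libraries, which 5.42% of tested genes did. Against all 8 untreated libraries the groups overlapped for every member, with 12 of 15 doxorubicin libraries above the highest untreated one for Tef, 10 for Per3 and Usp2, 9 for Per1 and Per2, and 3 for Dbp, Nr1d1 and Nr1d2.

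**Figure D1:**
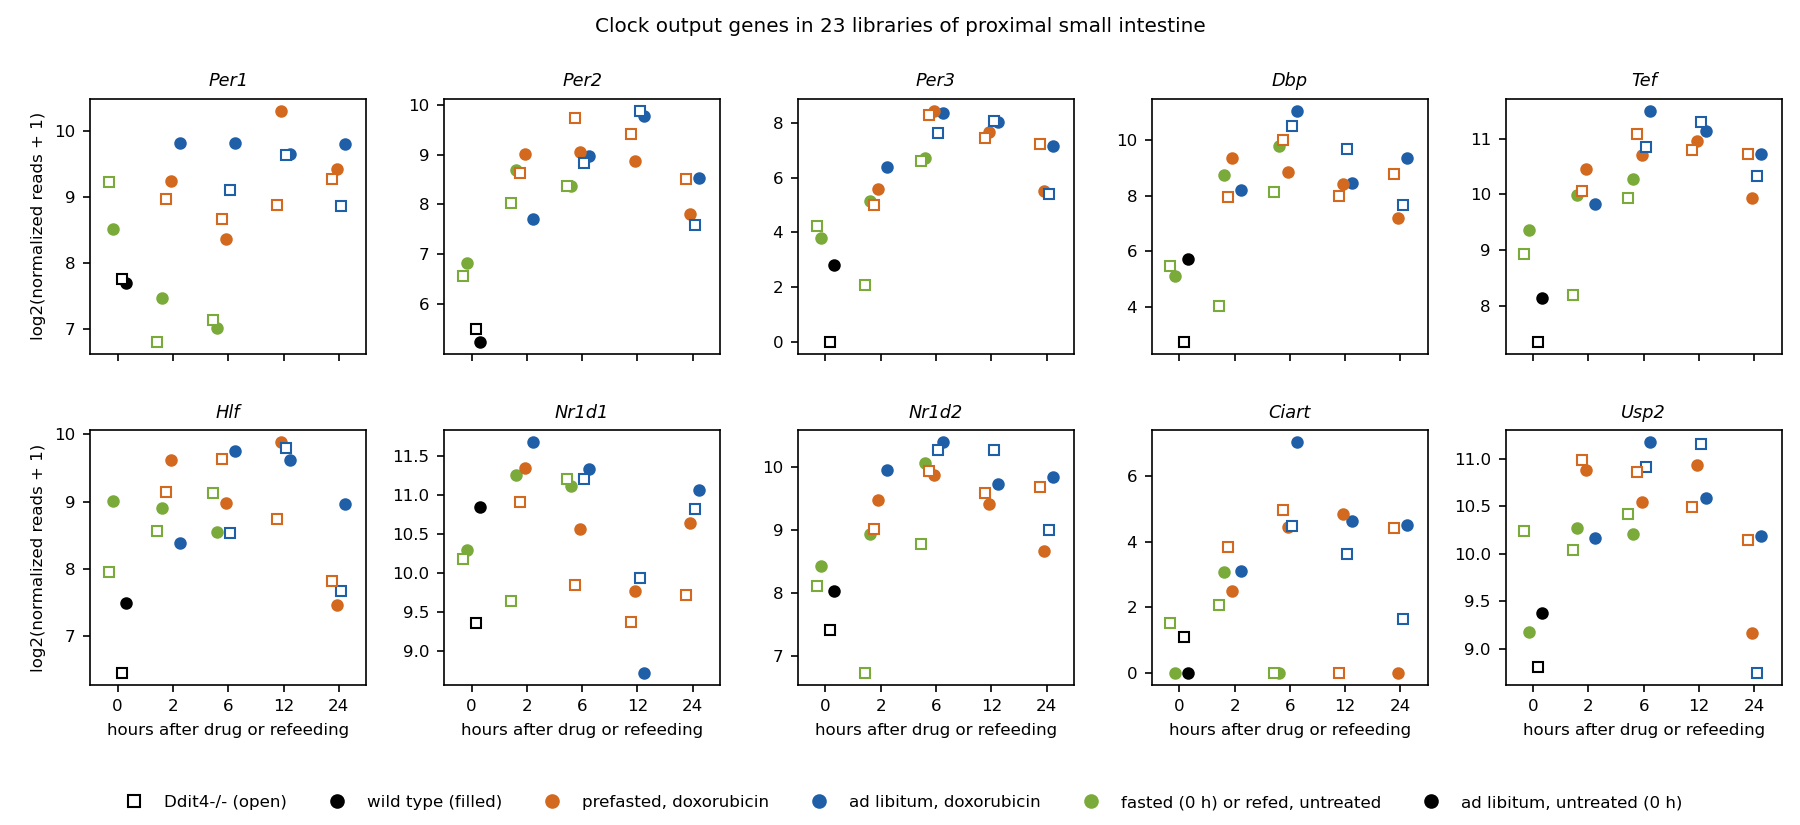
Each panel plots 1 gene as log2(normalized reads + 1) against hours after the drug or the start of refeeding, with 1 point per library (open squares Ddit4-/-, filled circles wild type; colours give feeding and drug). The untreated ad libitum libraries at 0 h are the lowest state of Per2, at 44.0 and 36.7 normalized reads, whereas Nr1d1 is lowest in an ad libitum library 12 h after doxorubicin, at 421.

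Doxorubicin and untreated ad libitum mice were compared to ask how the intestine of fed animals differed 6, 12 and 24 h after the drug. The 3 comparisons share the same pair of untreated libraries. At 6 h, 8 of the 10 members rose and none fell, against 1.34% of all tested genes called and 0.905% called higher. The median log2 difference of the 9 members other than Ciart, which had 0 and 1 reads in the untreated pair, was 2.61, and that of all genes was 0. At 12 h 8 rose, against 9.00% of genes called (4.78% higher and 4.21% lower), with a median of 2.75. At 24 h 5 rose, against 3.11% called (1.73% higher and 1.37% lower), with a median of 1.69. Nr1d1 and Ciart passed at none of these times, and Hlf, Nr1d2 and Usp2 passed at 6 and 12 h and missed at 24 h (edgeR called 8, 8 and 4 members at 6, 12 and 24 h, and DESeq2 9, 8 and 7).

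Per2, a core repressor of the clock, had 453 normalized reads in the Ddit4-/- library and 499.6 in the wild type at 6 h, 943 and 870.2 at 12 h, and 192 and 367 at 24 h, against 44.0 and 36.7 in the untreated pair. Every doxorubicin library stood above both untreated ones, and the 12 h pair was highest. The log2 differences were 3.53 ± 0.34 at 6 h (SE; adjusted p = 2e-04), 4.46 ± 0.34 at 12 h (adjusted p = 6.8e-06) and 2.69 ± 0.34 at 24 h (adjusted p = 0.0014), and Per2 passed under all 31 alternative settings at each time. Per3, a period gene not needed for the core rhythm in mice, had 195 and 327 normalized reads at 6 h, 268 and 259 at 12 h, and 40.9 and 143 at 24 h, in Ddit4-/- and wild type in that order, against 0 and 5.95 in the untreated pair. The untreated libraries held 0 and 6 reads of Per3, so its log2 differences of 6.59 ± 0.84 (adjusted p = 0.0017), 6.65 ± 0.84 (adjusted p = 0.00032) and 4.88 ± 0.84 (adjusted p = 0.0057) depend on the pseudocount. Over the alternatives they ranged from 5.12 to 7.76 at 6 h.

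Per1, a period gene that responds quickly to acute signals, had 554 and 903 normalized reads at 6 h, 797 and 804 at 12 h, and 463 and 895 at 24 h in Ddit4-/- and wild-type libraries in that order. The untreated pair had 216 and 206, below all of these. Per1 rose by 1.74 ± 0.38 on the log2 scale at 6 h (adjusted p = 0.032), 1.92 ± 0.38 at 12 h (adjusted p = 0.0066) and 1.61 ± 0.38 at 24 h (adjusted p = 0.030). Unlike Per2, its wild-type libraries hardly varied with time, at 904 (2 h), 903, 804 and 895, a course of 1 library per time that has no test.

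Among the PAR bZIP genes, Dbp had 1456 and 2129 normalized reads at 6 h in the Ddit4-/- and the wild-type library, 813 and 354 at 12 h, and 202 and 649 at 24 h, against 5.64 and 51.6 in the untreated pair. All 6 doxorubicin libraries were above both untreated ones, and the 6 h pair was highest. The differences were 6.56 ± 1.09 (adjusted p = 0.010), 4.85 ± 1.09 (adjusted p = 0.013) and 4.28 ± 1.09 (adjusted p = 0.042), with the largest standard errors among the 9 members other than Ciart. Tef, the second PAR bZIP gene, had 1834 and 2893 normalized reads at 6 h, 2517 and 2259.7 at 12 h, and 1283 and 1688 at 24 h, against 164 and 282 untreated. Tef rose by 3.42 ± 0.39 (adjusted p = 0.00063), 3.47 ± 0.39 (adjusted p = 0.00017) and 2.77 ± 0.39 (adjusted p = 0.0022). The 2 groups of Tef values were apart at every time.

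Hlf, the remaining PAR bZIP gene, had 367 and 863 normalized reads at 6 h and 894 and 782 at 12 h in Ddit4-/- and wild type in that order, against 85.8 and 178 in the untreated pair. It rose by 2.18 ± 0.46 (adjusted p = 0.027) and 2.75 ± 0.46 (adjusted p = 0.0023). At 24 h it stood at 201 and 496, a difference of 1.34 ± 0.46 that missed the threshold (adjusted p = 0.12).

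The 2 REV-ERB genes, whose products repress Arntl, had different courses, and the difference between them was not tested. Nr1d2 had 1241 and 1356 normalized reads at 6 h, 1243 and 850.5 at 12 h, and 513 and 917 at 24 h in the Ddit4-/- and the wild-type library, against 170.5 and 263 in the untreated pair, with no overlap. It rose by 2.61 ± 0.51 at 6 h (adjusted p = 0.022) and 2.28 ± 0.51 at 12 h (adjusted p = 0.013), and at 24 h the difference of 1.69 ± 0.51 missed (adjusted p = 0.083). Nr1d1 had 2355 and 2563 normalized reads at 6 h, 983 and 421 at 12 h, and 1800.1 and 2137 at 24 h, against 656 and 1838 untreated. At 12 h the wild-type library was below both untreated ones and the Ddit4-/- library between them. None of its differences passed, at 1.16 ± 0.45 (adjusted p = 0.23), -0.77 ± 0.45 (adjusted p = 0.31) and 0.84 ± 0.45 (adjusted p = 0.34), and the 12 h value ranged from -1.68 to 0.14 over the alternatives. Thra, which overlaps Nr1d1, fell by 0.65 on the log2 scale at 12 h (adjusted p = 0.035), and the share of its reads counted for Nr1d1 was not tested.

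Usp2 encodes a ubiquitin protease that acts on clock proteins. It had 1923 and 2317 normalized reads at 6 h, 2271 and 1542 at 12 h, and 428 and 1164 at 24 h, against 448 and 666 in the untreated pair. Both doxorubicin libraries exceeded both untreated ones at 6 and 12 h, with differences of 1.95 ± 0.42 (adjusted p = 0.032) and 1.77 ± 0.42 (adjusted p = 0.017). At 24 h the Ddit4-/- library was below the untreated pair, and the difference was 0.37 ± 0.42 (adjusted p = 0.70; -0.44 to 1.18 over the alternatives). Ciart, which encodes a repressor of CLOCK and BMAL1, was near the limit of detection with 21.2 and 130.2 normalized reads at 6 h, 11.2 and 23.7 at 12 h, and 2.12 and 21.6 at 24 h. The untreated pair had 1.13 and 0, where a count of 0 allows up to 3 reads, and the adjusted p was 0.15, 0.20 and 0.45 in order of time.

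**Figure D2:**
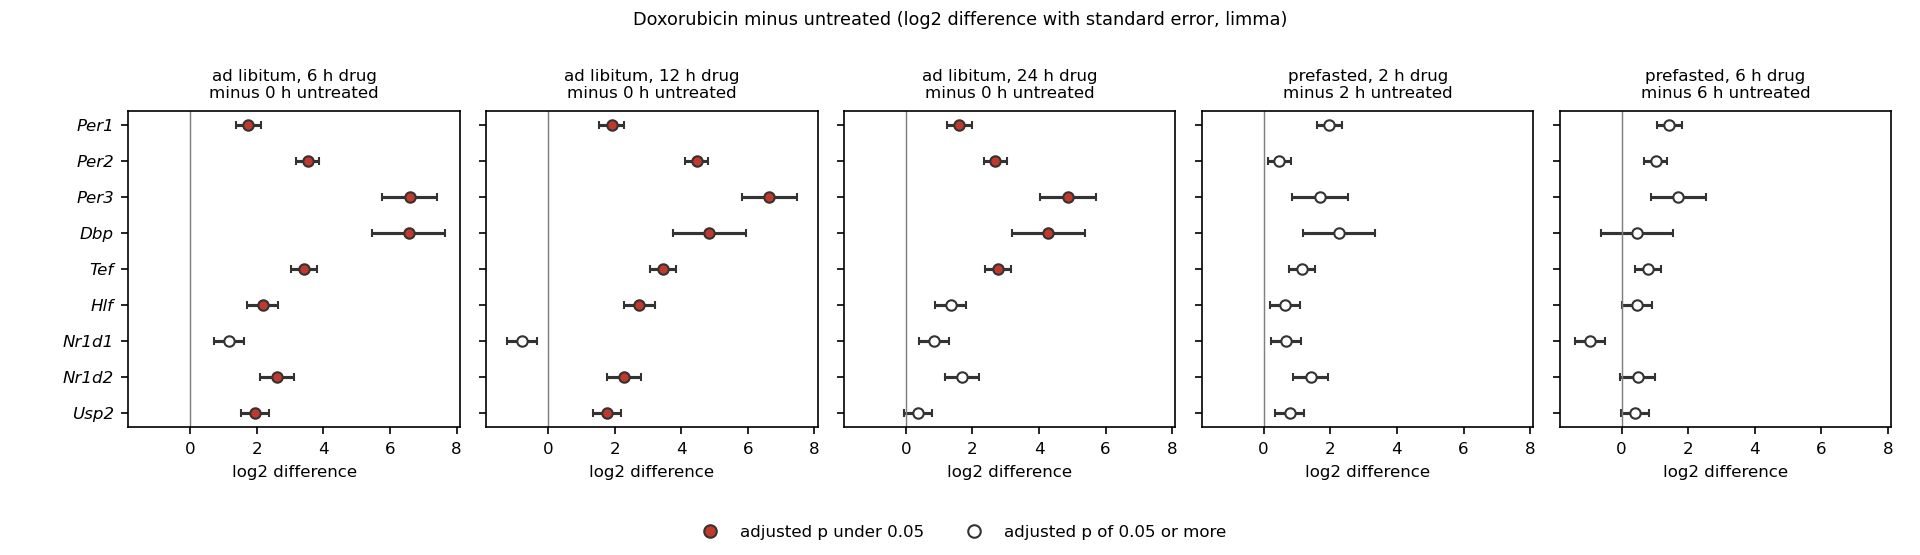
Log2 differences with standard errors (limma, 2 libraries per state) of 9 members, doxorubicin minus untreated, for ad libitum mice at 6, 12 and 24 h against the shared 0 h pair and for prefasted mice against untreated mice refed for the same 2 or 6 h. Filled points mark an adjusted p under 0.05, which 8, 8 and 5 members reached in ad libitum mice and 0 in prefasted mice; Ciart is left out because its untreated ad libitum libraries held 0 and 1 reads.

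These counts rest on few libraries. A state left with 1 library makes it harder for any gene to pass, and the share of all genes called then is not given here. Without the untreated Ddit4-/- library, which lacks Y-linked reads, the number that rose was 2 at 6 h, 5 at 12 h and 2 at 24 h, and without the untreated wild-type library 4 at 6 h and 3 at 24 h. Without the Ddit4-/- library of the time itself it was 3, 3 and 1, and without the wild-type library of the time it was 3 at 6 h and 2 at 24 h. Crypt markers also differed in these comparisons, in which the drug and the hours since the untreated pair cannot be told apart. The 6 stem and cycling genes summed to 480 and 752 normalized reads at 6 h, against 2520 and 3838 untreated. They summed to 222 and 338 at 12 h and to 292 and 541 at 24 h. Of them 1, 4 and 2 fell in order of time, where 0.436%, 4.21% and 1.37% of all genes were called lower. None of the 6 was at 0 in these libraries. Smooth muscle markers summed to 171 and 429 at 12 h, against 2651 and 676 untreated, and 4 of 5 fell, with 4.21% of all genes called lower. The part of these shifts in the values of the clock output genes was not tested.

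Prefasted mice allow a comparison of doxorubicin with no drug at the same hours of refeeding. At 2 h no member passed (limma, 0 of 10, with 3 at an unadjusted p under 0.05, 0 by edgeR and 1, Per1, by DESeq2), and 0.0335% of all genes did (0.00838% higher and 0.0251% lower). Per1 had 499 and 609 normalized reads with doxorubicin, in Ddit4-/- and wild type in that order, against 110.3 and 177 in the untreated refed libraries. The treated libraries were above both untreated ones, and the log2 difference of 1.97 ± 0.38 missed the threshold (adjusted p = 0.057; 7 of 31 alternatives passed). All 9 members other than Ciart had a positive difference, with a median of 1.15 against -0.018 over all genes, and that of Nr1d1 changed sign in 1 of 31 alternatives. Dbp had 244 and 652 normalized reads against 15.2 and 427 (2.27 ± 1.09, adjusted p = 0.45), Nr1d2 516 and 713 against 106 and 492 (1.41 ± 0.51, adjusted p = 0.30), and Tef 1064 and 1395 against 296 and 1013 (1.15 ± 0.39, adjusted p = 0.27). In each of these 3 genes the untreated Ddit4-/- library, which lacks Y-linked reads, was the low value. Per2 differed little, with 394 and 512 against 258 and 411 (0.46 ± 0.34, adjusted p = 0.64).

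At 6 h no member passed either (limma, 0 of 10, with 3 at an unadjusted p under 0.05, 0 by edgeR and 1, Per1, by DESeq2; 0% of all genes passed). Per1 had 404 and 327 normalized reads with doxorubicin, against 140.1 and 129 without, again with no overlap (1.43 ± 0.38, adjusted p = 0.15). Per2 had 856 and 529 against 331 and 328 (1.03 ± 0.34, adjusted p = 0.25), and Per3 310.1 and 347 against 95.9 and 104 (1.71 ± 0.84, adjusted p = 0.43). All 3 period genes were thus higher in both treated libraries than in both untreated ones, as were Tef, Usp2 and Ciart. The share of all genes separated in this way was not computed. The 3 members at an unadjusted p under 0.05 were Per1, Per2 and Ciart. Ciart had 29.8 and 20.9 normalized reads against 0 and 0 (4.70 ± 1.69, adjusted p = 0.28). For Nr1d1 both treated libraries were below both untreated ones, with 921 and 1509.7 normalized reads against 2349.7 and 2207 (-0.95 ± 0.45, adjusted p = 0.42). For Dbp, with 1019 and 458 against 279 and 888, and Nr1d2, with 986 and 939 against 441 and 1077, the groups overlapped and the sign changed in 2 and 1 of the alternatives. The median of the 9 members was 0.48, and that of all genes -0.006.

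Whether the drug difference changed between 2 and 6 h was tested directly. No member passed (limma, 0 of 10, with 1, Nr1d1, at an unadjusted p under 0.05, 0 by edgeR and 0 by DESeq2; 0.00838% of genes passed). For Nr1d1 the difference at 6 h minus that at 2 h was -1.63 ± 0.64 (adjusted p = 0.57). The wild-type treated libraries in these tests are among the 4 whose titles conflict with the drug label, and without those 4 no member passed at 2 or 6 h.

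The effect of food deprivation was read from the fasted pair set against the untreated fed pair. All 10 had a positive log2 difference and none passed (limma, 0 of 10, with 5 at an unadjusted p under 0.05, 0 by edgeR and 2, Per2 and Tef, by DESeq2; 0.343% of genes passed). The sign changed in at least 1 alternative for Dbp, Nr1d1, Ciart and Usp2. Tef had 489 and 657 normalized reads in the fasted Ddit4-/- and wild-type library, against 164 and 282 fed (1.40 ± 0.39, adjusted p = 0.22). Per2 had 93.7 and 112 against 44.0 and 36.7 (1.33 ± 0.34, adjusted p = 0.16), and Per1 602 and 364 against 216 and 206 (1.15 ± 0.38, adjusted p = 0.38). Hlf had 246 and 514 against 85.8 and 178 (1.51 ± 0.46, adjusted p = 0.28). For these 4 genes both fasted libraries were above both fed ones, as they were for Per3 and Nr1d2. Per3 had 17.8 and 12.9 against 0 and 5.95 (2.62 ± 0.84, adjusted p = 0.34). Nr1d2 had 276 and 345 against 170.5 and 263 (0.54 ± 0.51, adjusted p = 0.93). The share of all genes separated in this way was not computed. Nr1d1 stood at 1163 and 1259, between the fed values of 656 and 1838. The median over the 9 members other than Ciart was 1.15, and over all genes -0.0023. These fed libraries are the same pair that served as the reference for the drug in ad libitum mice. Both Ddit4-/- libraries of this comparison lack Y-linked reads, and the fasted one also holds pancreatic transcripts.

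Between fasted and refed libraries Per1 and Per2 differed in opposite directions. The hours of harvest are not given, so hours of refeeding and hour of the day cannot be told apart. After 6 h Per2 rose and Per1 fell, the only 2 members past the threshold, where 7.02% of all genes passed (3.56% higher and 3.46% lower). Per2 had 331 and 328 normalized reads in the refed libraries, against 93.7 and 112 in the fasted ones (1.67 ± 0.34, adjusted p = 0.013). Per1 had 140.1 and 129, against 602 and 364 (-1.79 ± 0.38, adjusted p = 0.014). Neither gene overlapped between the states. The same 2 genes had nearly these values already after 2 h, at 258 and 411 for Per2 (1.66 ± 0.34) and 110.3 and 177 for Per1 (-1.74 ± 0.38), but missed there (adjusted p = 0.063 and 0.081). At 2 h no member passed (limma, 0 of 10, with 2 at an unadjusted p under 0.05, 0 by edgeR and 2, Per1 and Per2, by DESeq2; 0.251% of genes passed, 0.142% higher and 0.109% lower). Both refeeding comparisons share the fasted pair.

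For Per3 and Dbp at least 1 library refed for 2 h was below both fasted libraries, and both libraries refed for 6 h were above them. Per3 had 3.20 and 34.2 normalized reads after 2 h and 95.9 and 104 after 6 h of refeeding, against 17.8 and 12.9 in fasted libraries. Between 6 and 2 h it rose by 3.05 ± 0.84 on the log2 scale (adjusted p = 0.034), the 1 member to pass where 9.00% of genes did (3.60% higher and 5.40% lower); edgeR called 0 members there. Dbp had 15.2 and 427 normalized reads after 2 h and 279 and 888 after 6 h, against 43.1 and 33.5 fasted. At 6 h both refed libraries exceeded both fasted ones, and the difference of 3.68 ± 1.09 fell just short (adjusted p = 0.051). At 2 h the Ddit4-/- library was below both. Nr1d2 was split in the same way between the 2 libraries at 2 h, at 106 and 492 against 276 and 345 fasted, and Tef too, at 296 and 1013 against 489 and 657.

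**Figure D3:**
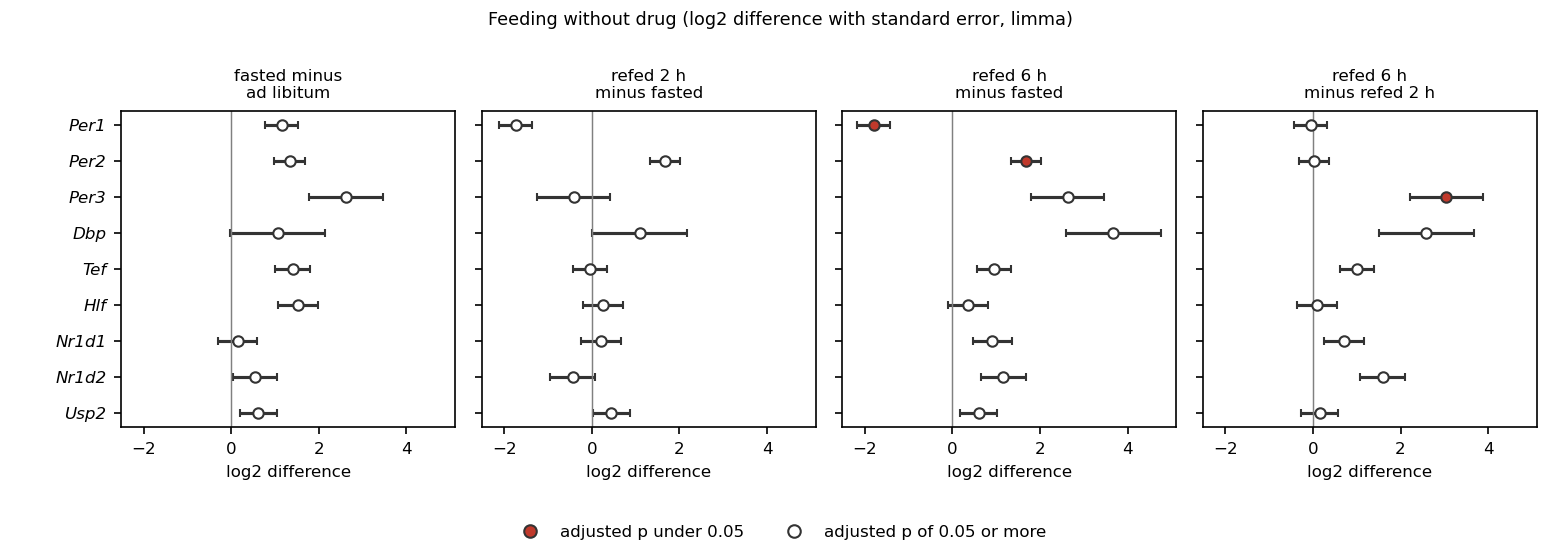
Log2 differences with standard errors (limma, 2 libraries per state) of 9 members between untreated states: fasted minus ad libitum, refed 2 h or 6 h minus fasted, and refed 6 h minus refed 2 h. Filled points mark an adjusted p under 0.05, reached by Per1 (lower) and Per2 (higher) after 6 h of refeeding and by Per3 between 6 and 2 h.

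The refeeding values touch libraries that stand apart, and a state left with 1 library makes it harder for any gene to pass. Without the Ddit4-/- fasted library, which lacks Y-linked reads and holds pancreatic transcripts, 0 members passed at 6 h of refeeding, and without the wild-type library refed for 6 h 1 passed. Without both libraries with pancreatic transcripts 0 passed. Between 6 and 2 h, 0 passed without the Ddit4-/- library refed for 2 h or without either library refed for 6 h. Paneth and crypt markers moved in that comparison too. Paneth markers summed to 2750 and 5757 normalized reads after 6 h, against 19381 and 44694 after 2 h, with 6 of 7 fallen, and crypt markers to 683 and 712 against 3400.0 and 7490.2, with 5 of 6 fallen. Of all genes, 5.40% were called lower there. The part of these markers in the result for Per3 was not tested.

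After doxorubicin, prefasted and ad libitum mice were compared in 7 pairs of libraries matched on genotype and time, the comparison the study's feeding design points to. No member passed (limma, 0 of 10, with 2, Nr1d1 and Nr1d2, at an unadjusted p under 0.05, 0 by edgeR and 0 by DESeq2; 0% of all genes passed). Nr1d1 was lower in the prefasted library of 6 of 7 pairs (-0.50 ± 0.22, adjusted p = 0.75), as was Nr1d2 (-0.40 ± 0.17, adjusted p = 0.75). Per1 was lower in 5 of 7 (-0.36 ± 0.21), and Per2 higher in 4 of 7 (0.16 ± 0.25, with -0.025 to 0.46 over the alternatives). The median of the 9 members other than Ciart was -0.14, and that of all genes -0.007. The prefasted library of every wild-type pair is among the 4 whose titles say untreated. These pairs, here and time by time, therefore rest on the drug label.

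Time by time, 6 h gave the lowest unadjusted p-values. There Nr1d1 had 921 and 1509.7 normalized reads in prefasted Ddit4-/- and wild-type libraries, against 2355 and 2563 in ad libitum ones (-1.06 ± 0.45, adjusted p = 0.39). Per1 had 404 and 327 against 554 and 903 (-0.96 ± 0.38, adjusted p = 0.37). Neither overlapped, and both missed. At 6 h 0 of 10 members passed with 2 at an unadjusted p under 0.05 (0.00838% of genes passed), and at 12 h and 24 h 0 passed with 0 at an unadjusted p under 0.05 (0% of genes), all in limma; edgeR and DESeq2 also called 0. In the test of whether the feeding difference changed with time, 0 of 10 members passed in limma, edgeR and DESeq2, with 0 at an unadjusted p under 0.05 and 0.00838% of genes past the threshold.

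Within doxorubicin-treated mice the time of the highest state mean was not the same for all members. Among ad libitum libraries the state means were highest at 6 h for Dbp (1792), Nr1d2 (1298), Usp2 (2120.1) and Ciart (75.7), and at 12 h for Per2 (907), Hlf (838) and Tef (2388, against 2364 at 6 h). Per3 had 264 at 12 h and 261 at 6 h. The single 2 h wild-type library was highest for Nr1d1 (3281) and Per1 (904). At 12 h the state mean of Nr1d1 was its lowest of all 12 states (702). A test over 6, 12 and 24 h in ad libitum mice called no member (limma F test, 0 of 10, with 4 at an unadjusted p under 0.05, 0 by edgeR and 2, Per2 and Nr1d1, by DESeq2; 0.0419% of genes passed). The lowest adjusted values in this limma test were those of Per2 (adjusted p = 0.11), Nr1d1 (adjusted p = 0.17) and Usp2 (adjusted p = 0.20).

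In prefasted mice the course over 2, 6, 12 and 24 h had no member past the threshold (limma F test, 0 of 10, with 5 at an unadjusted p under 0.05, 0 by edgeR and 2, Per3 and Hlf, by DESeq2; 0.343% of genes passed). Per3 had 31.0 and 46.7 normalized reads at 2 h, 310.1 and 347 at 6 h, 174 and 199 at 12 h, and 149 and 44.9 at 24 h, in Ddit4-/- and wild type in that order (adjusted p = 0.19). Its 6 h pair was above all other prefasted libraries. Hlf had 562 and 789 at 2 h, 792 and 501 at 6 h, 427 and 949.9 at 12 h, and 224 and 174 at 24 h (adjusted p = 0.12), with the 24 h pair below the rest.

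Loss of Ddit4 was compared over all states to ask whether it altered these genes. No member passed (limma, 0 of 10, with 2, Hlf and Nr1d1, at an unadjusted p under 0.05, 0 by edgeR and 0 by DESeq2; 0.578% of genes passed, 0.436% higher and 0.142% lower). The difference was negative for 9 of 10, with a median of -0.37 for the 9 members other than Ciart and of -0.0096 for all genes, and the sign of Per2, Ciart and Usp2 changed in 12, 2 and 11 of 31 alternatives. Nr1d1 was lower in the Ddit4-/- library of 9 of 11 pairs (-0.43 ± 0.19, adjusted p = 0.38). Its values ran from 656 to 2355 normalized reads with a median of 983 in Ddit4-/- libraries (n = 11), and from 421 to 3281 with a median of 1988 in wild type (n = 12). Hlf was lower in 7 of 11 (-0.44 ± 0.19, adjusted p = 0.37), and Per3 and Tef in 8 of 11 (-0.66 ± 0.36 and -0.33 ± 0.17). Per2 did not lean either way, higher in 6 and lower in 5 (-0.0035 ± 0.15). The untreated Ddit4-/- libraries fed ad libitum, fasted or refed for 2 h lack Y-linked reads.

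Within a state, most members often had a difference of the same sign, and that sign was not the same in all states. In Ddit4-/- relative to wild type, at least 8 of 10 were lower in 5 states. These were untreated refed 2 h (median log2 difference -1.31), ad libitum doxorubicin 6 h (-0.60) and 24 h (-1.12), with all 10 lower, and prefasted doxorubicin 2 h (-0.42) and 12 h (-0.41), with 8 lower. In 3 others 8 of 10 were higher, namely ad libitum doxorubicin 12 h (0.17), prefasted doxorubicin 6 h (0.35) and prefasted doxorubicin 24 h (0.88), and the remaining 3 of the 11 states had at most 7 with the same sign. Each state compares 1 library with 1, so hour of harvest, animal and genotype cannot be told apart within it. The share of all genes with the same sign in these pairs was not computed. Members whose values follow each other are not separate observations. The wild-type library of each prefasted doxorubicin state has a title that conflicts with its drug label. The widest gap outside Ciart was that of Dbp in untreated mice refed for 2 h, with 15.2 normalized reads in the Ddit4-/- library against 427 in the wild type. That Ddit4-/- library lacks Y-linked reads, as do the untreated Ddit4-/- libraries fed ad libitum or fasted.

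**Figure D4:**
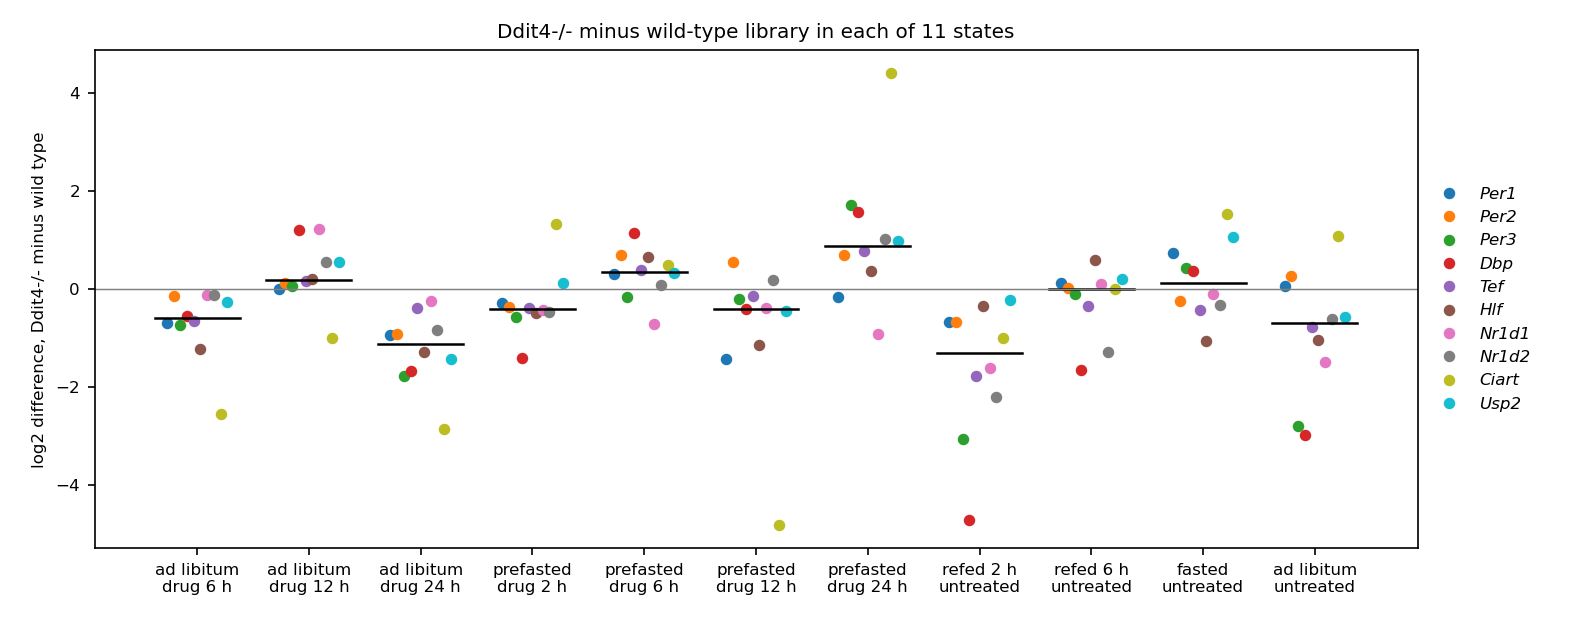
Log2 difference between the Ddit4-/- and the wild-type library in each of the 11 states that have both, with 1 point per gene and a black line at the median of the 10 genes. All 10 points lie below 0 in ad libitum doxorubicin 6 h and 24 h and in untreated refed 2 h, 8 of 10 lie below 0 in prefasted doxorubicin 2 h and 12 h, and 8 of 10 lie above 0 in ad libitum doxorubicin 12 h and prefasted doxorubicin 6 h and 24 h.

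Whether the Ddit4 difference depended on the drug was tested as the 7 doxorubicin pairs against the 4 untreated pairs. No member passed (limma, 0 of 10, with 3 at an unadjusted p under 0.05, 0 by edgeR and 0 by DESeq2; 0% of genes passed). The 3 were Nr1d2 (1.17 ± 0.36), Dbp (2.24 ± 0.81) and Tef (0.79 ± 0.29), each with an adjusted p of 0.98. Nr1d2 and Tef were lower in the Ddit4-/- library of all 4 untreated pairs, and in 3 and 4 of the 7 doxorubicin pairs. All 3 libraries that lack Y-linked reads are untreated Ddit4-/- libraries, so what sets them apart and the absence of drug cannot be told apart. The prefasted doxorubicin pairs hold the 4 wild-type libraries whose titles conflict with the drug label.

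Over the 23 libraries Nr1d1 followed the other members least, described here by Pearson r of log2 values, with libraries that share states and scaling. The closest partner of Per3 was Tef (r = 0.96), as it was of Per2 (0.875), while Dbp and Nr1d2 (0.93) and Hlf and Usp2 (0.81) were each other's closest. With the mean of the other members, Tef had r = 0.94, Dbp 0.91, Per3 0.90, Nr1d2 0.89 and Nr1d1 0.12. Nr1d1 was the least alike member for each of the other 9. Per1 was also loose, at 0.52. Arntl, the opposite-phase partner, had r = -0.86 with Dbp, -0.81 with Nr1d2 and -0.21 with Nr1d1.

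Other genes of the clock gave a wider view of the same comparisons. Of 7 genes of the activating arm or the opposite phase, 2 fell and 0 rose 6 h after doxorubicin in ad libitum mice, against 1.34% of all genes called and 0.436% called lower. Arntl, which encodes BMAL1, had 115 and 120.1 normalized reads at 6 h, against 846 and 715 in the untreated pair (-2.72 ± 0.44, adjusted p = 0.0093). Nfil3, which encodes a repressor that competes with the PAR bZIP factors for D-boxes, had 56.2 and 67.4, against 869 and 279.6 (-2.98 ± 0.56, adjusted p = 0.016). At 12 h 2 of the 7 passed in opposite directions, with 9.00% of all genes called, and Arntl was the 1 that fell (-1.64 ± 0.44, adjusted p = 0.030). The mean log2 level of the 7 genes, relative to all libraries, was not lower at 12 h. It was 0.28 in the Ddit4-/- library and 0.37 in the wild type, against 0.082 and 0.20 in the untreated pair. At 24 h 0 of the 7 passed in limma, with 2 at an unadjusted p under 0.05 and 3.11% of all genes called. Clock did not pass at 6, 12 or 24 h.

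Of the other E-box repressors, Cry2 rose at 6 h (1.78 ± 0.36, adjusted p = 0.024), 12 h (2.36 ± 0.36, adjusted p = 0.0014) and 24 h (1.52 ± 0.36, adjusted p = 0.031) after doxorubicin in ad libitum mice. At these times 1.34%, 9.00% and 3.11% of all genes were called. How many of these repressors passed is not given here, so the values describe the named genes and not the group. Bhlhe40 rose at 12 h (1.47 ± 0.34, adjusted p = 0.015) and also with refeeding without drug, at 2 h (2.15 ± 0.34, adjusted p = 0.016) and 6 h (1.72 ± 0.34, adjusted p = 0.012). After 2 h of refeeding it had 6696 and 6293 normalized reads, against 1278 and 1682 in fasted libraries. Of all genes, 0.251% were called at 2 h of refeeding and 7.02% at 6 h. Of 12 PAR bZIP and clock-controlled output genes, 2 rose at 6 h, among them Por, the electron donor of microsomal P450 enzymes (1.15 ± 0.25, adjusted p = 0.035), where 0.905% of all genes were called higher. At 12 h 5 rose and 1 fell, against 4.78% of genes higher and 4.21% lower, and at 24 h 0 of 12 passed in limma, with 5 at an unadjusted p under 0.05 and 3.11% of genes called. Wee1, a kinase that restrains entry into mitosis, was among the 5 (1.60 ± 0.40, adjusted p = 0.021). Of 7 clock kinases and ubiquitin ligases 0 passed in limma at 6, 12 or 24 h, with 1, 3 and 1 at an unadjusted p under 0.05; the lowest adjusted value was that of Csnk1e at 12 h (1.26, adjusted p = 0.058).

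Among 9387 genes that averaged 50 normalized reads or more, those most like the mean of the 10 members over the 23 libraries were Slc13a2 (r = 0.87), a dicarboxylate transporter, Cyth1 (0.87), Osbpl3 (0.86), Aldh4a1 (0.86), which encodes a mitochondrial enzyme of proline breakdown, Recql5 (0.85) and Slc6a19 (0.85), the main neutral amino acid transporter of the enterocyte brush border. The least alike were Pnp2 (-0.85), Aldh18a1 (-0.84), which encodes an enzyme of proline synthesis, Arntl (-0.83), Tmem252 (-0.80) and Ube2l3 (-0.80). These are descriptions over libraries that share states.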

How the data were processed

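RNA was measured in 23 libraries of proximal small intestine, made from poly-T selected mRNA without strand information and sequenced as paired reads, per the labels' protocols. Per the submitters' processing notes, the tools were STAR, Trim Galore and DESeq2, on the mm10 build, versions not given in the sources used here. The deposited values are a signal: read counts that the authors divided by 1 size factor per library. Whole reads were recovered from 100% of values within a tolerance of 0.01, and 1 table of 16259 genes held all libraries.

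The 11939 genes that averaged 10 normalized reads or more were tested with limma 3.58.1 in R 4.3.3 on log2(value + 1), with 1 term per state and 1 for genotype, a mean-dependent prior variance and Benjamini-Hochberg adjustment over all tested genes at 0.05. This left 10 residual degrees of freedom, 6 for the 7 prefasted and ad libitum pairs and 9 for genotype by drug. A fold on this scale understates the change of low genes. edgeR 4.0.16 (quasi-likelihood) and DESeq2 1.42.0 on the recovered reads were alternatives, with a pseudocount of 5, no filter, quantile normalization and left-out libraries. The code was tested on simulated data. The named genes are the 10 members, genes past the threshold in chosen clock lists, and genes ranked by Pearson r with the member mean. The members and lists were chosen with earlier results of these data known. Nothing in the labels says whether libraries came from separate litters or days. Promoters and motifs were read from RefSeq (GRCm38.p6), positions from the mm10 annotation. Intervals for counting error were not computed; a count of 0 allows up to 3 reads.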

Additional observations from a re-analysis of the deposited data

How the results depend on the processing

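No paired analysis was possible because no label numbers the replicates and each group held 1 library; this concerns a replicate block, while the pairs in the report are matched on genotype and time or on state. The counts below are members past the threshold, of 10, and the share of all genes called under each setting is not given. In ad libitum doxorubicin mice, leaving out 1 library gave 2 to 8 at 6 h, 3 to 8 at 12 h and 1 to 6 at 24 h, and dropping all 3 libraries without Y-linked reads gave 3, 4 and 2. Differences between any states gave 5 to 9 and, without those 3 libraries, 4. Refeeding for 2 h gave 0 to 1 with 1 library left out, 2 with quantile normalization, 2 with DESeq2 and 2 without the 4 libraries of conflicting titles. Refeeding for 6 h gave 0 to 4 with 1 library left out, 4 with a pseudocount of 5, quantile normalization or DESeq2, and 0 without the libraries lacking Y-linked reads or those with pancreatic transcripts. Between 6 and 2 h of refeeding the range was 0 to 2, with 0 when every gene above 0 was tested, 0 in edgeR, 2 in DESeq2, 2 without the conflicting titles and 0 without the libraries lacking Y-linked reads or those with pancreatic transcripts. Prefasted doxorubicin at 2 h gave 0 to 1, and 1 with quantile normalization, DESeq2 or without the pancreatic libraries; at 6 h DESeq2 gave 1. DESeq2 gave 2 for fasting, 2 for time in ad libitum mice and 2 for time in prefasted mice, and time in ad libitum mice gave 1 without the conflicting titles. The cause of these shifts was not tested. Of the members' log2 differences, the 58 with an unadjusted p under 0.05 kept their sign under every setting run, and 59 of the other 102 changed sign under at least 1. Per2 at 6, 12 and 24 h, Tef at 6 and 12 h and Per3 at 12 h passed in all 31 alternatives. Depth limits Ciart and untreated Per3, which rest on 0 to 6 reads per untreated ad libitum library.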

Other observations

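Of 8 glucocorticoid-responsive genes, 0 passed 6 h after doxorubicin in ad libitum mice, where 1.34% of all genes were called (limma, adjusted over all tested genes, with 3 of the 8 at an unadjusted p under 0.05). At 12 h 4 rose and 0 fell, against 9.00% of genes called, and at 24 h 4 rose and 0 fell, against 3.11%. Fkbp5, a chaperone of the glucocorticoid receptor, had 4132 and 5200.2 normalized reads at 12 h in the Ddit4-/- and the wild-type library, against 94.8 and 117 in the untreated pair (5.45 ± 0.88 on the log2 scale, adjusted p = 0.0020). Both treated libraries were far above both untreated ones. It was also higher in fasted libraries, at 2607 and 2200.02 (4.49 ± 0.88, adjusted p = 0.036).

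After 6 h of refeeding without drug, 3 of the 8 fell and 0 rose, against 7.02% of all genes called. Fkbp5 had 275 and 149 normalized reads in the refed Ddit4-/- and wild-type library, against 2607 and 2200.02 in the fasted pair (-3.56 ± 0.88, adjusted p = 0.026). Sgk1, a kinase gene induced by corticosteroids, had 2540.2 and 2006, against 22612 and 16979 (-3.12 ± 0.49, adjusted p = 0.0060). Per1 and Per2 both respond to these hormones, and in the same comparison Per1 fell and Per2 rose. A link between these hormones and the clock output genes was not tested.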
